A study of Mus musculus with 13 samples.

Results

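The 8 genes described here handle cholesterol in the aortic wall, and they were chosen by name, as genes of cholesterol synthesis, uptake and efflux together with the gene that is inactivated in these mice. They are Apoe, Lrp1, Abca1, Abcg1, Nr1h3, Srebf2, Hmgcs1 and Sqle, 8 of the 54532 genes in the deposited count table, named by a rule without a measured value, although earlier results of these data were known when they were picked. RNA sequencing was performed on 13 aortas of ApoE-/- mice, 10 weeks old at the start, in which abdominal aortic aneurysm was modeled by subcutaneous infusion of angiotensin II (AngII) at 1000 ng/kg/min for up to 28 days. In the Ad-FAM3A group (n = 7) the mice received 5 tail vein injections of an adenovirus that carries mouse Fam3a with a FLAG tag and mCherry under the EF1A promoter, and in the Ad-sham group (n = 6) they received the same vector without the gene. EF1A is active in many cell types and the virus was given into the circulation, so delivery was not directed at the aorta or at 1 cell type. The absent ApoE and the AngII were shared by all 13 mice, and no untreated or wild-type aorta was part of the comparison. Whole aortas were harvested, and each library is 1 aorta.

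The total count per aorta ranged from 14481179 to 19797407, and 3 counts, the limit that a count of 0 allows, corresponded to 0.140 to 0.221 CPM (counts scaled to the library total, here after TMM normalization), a floor that covers counting error only. All 8 genes were among the 15811 genes with enough counts to be tested. Smooth muscle markers were high in every aorta, with summed levels of 2371 to 19081 CPM over 8 genes and none of them at 0. The gene row of Fam3a did not separate the groups: it averaged 24.4 ± 4.27 CPM over the 6 Ad-sham aortas and 24.0 ± 4.64 CPM over the 7 Ad-FAM3A aortas (mean ± SD, two-sided exact permutation p 0.835). Whether transcripts of the delivered coding sequence were counted in this row cannot be told from the gene table, and the groups are named here by their labels.

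Cells obtain cholesterol in a pair of ways. They build it from acetyl-CoA through the mevalonate and squalene steps, and they take up lipoproteins through receptors at the cell surface. When membrane cholesterol is low, the transcription factor encoded by Srebf2 moves to the nucleus and switches on the synthesis enzymes and lipoprotein uptake. When sterols are abundant, their oxidized forms activate the liver X receptors, of which Nr1h3 encodes LXRα, and these switch on the exporters Abca1 and Abcg1 and, in macrophages, Apoe. In the vessel wall this export route is best known from macrophages that turn into lipid-laden foam cells, and loss of ApoE, the ligand by which remnant lipoproteins are cleared from plasma, raises plasma cholesterol.

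The sequences before the start sites of 3 of the genes are shown because they hold the short motifs that the sterol factors bind. RefSeq promoter sequences on GRCm38.p6 were found for 6 of the 8 genes, not for Sqle and Abcg1. The 250 bases before each start were searched on both strands for the sterol regulatory element TCACCCCA, for the CCAAT box and for the LXR element of the DR4 type (GGTNA and GGTCA with any 5 bases between them), motifs whose letters were set after these sequences had been seen. In the lines that follow, the sterol regulatory element or, for Abca1, the LXR element read on the opposite strand is in capitals, and each sequence runs 5′ to 3′ along its gene.
Hmgcs1, chr13:119690101-119690350, plus strand: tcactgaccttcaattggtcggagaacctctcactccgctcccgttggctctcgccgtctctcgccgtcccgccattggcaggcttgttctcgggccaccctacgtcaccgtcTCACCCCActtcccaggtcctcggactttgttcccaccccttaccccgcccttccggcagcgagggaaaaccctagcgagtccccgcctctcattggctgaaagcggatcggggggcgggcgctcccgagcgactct
Srebf2, chr15:82147019-82147180, plus strand: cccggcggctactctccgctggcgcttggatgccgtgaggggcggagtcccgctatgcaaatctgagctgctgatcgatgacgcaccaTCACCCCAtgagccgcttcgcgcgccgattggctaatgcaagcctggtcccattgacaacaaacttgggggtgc
Abca1, chr4:53159896-53160145, minus strand: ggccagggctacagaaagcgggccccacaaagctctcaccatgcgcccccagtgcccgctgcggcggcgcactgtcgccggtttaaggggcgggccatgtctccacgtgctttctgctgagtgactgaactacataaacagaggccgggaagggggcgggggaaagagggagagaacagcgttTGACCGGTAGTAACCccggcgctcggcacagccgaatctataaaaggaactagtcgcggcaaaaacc
The element starts at position -137 from the RefSeq start in Hmgcs1 and at -162 in Srebf2, whose window is shown up to the start of its deposited gene model. Apoe holds the same letters at -213. TCACCCCA occurs in 341 of the 27025 promoter windows of all genes (1.26%). Hmgcs1 also holds 3 CCAAT boxes and Srebf2 holds 1, a motif found in 34.5% of all windows. The LXR element of Abca1 lies at -67 and occurs in 0.163% of all windows. No searched motif overlaps another in these windows. Lrp1 and Nr1h3 held none of the 3 motifs in theirs, and a match describes letters, not binding.

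None of the 8 genes differed between the virus groups beyond the spread of the aortas. In edgeR's quasi-likelihood fit, 0 of the 8 passed an adjusted p of 0.05 (Benjamini-Hochberg, 15811 genes), and their adjusted p-values ran from 0.812 to 0.982. Of all 15811 genes, 0% were called, which needed this p and a log2 change of more than 1 either way, and the smallest adjusted p of the edgeR fit was 0.810. At an unadjusted p under 0.05, 0 of the 8 passed, against 5.91% of all genes, and DESeq2 and limma-voom also called 0 of the 8. The groups overlapped in CPM for all 8, and 0.0949% of all genes had groups that did not overlap. The fitted fold change was below 1 for 6 of the 8, with a median log2 fold change of -0.10 against 0.003 over all genes tested. The 95% intervals of the 8 genes reached down to 0.455-fold, for Hmgcs1, and up to 2.47-fold, for Abcg1.

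**Figure D1:**
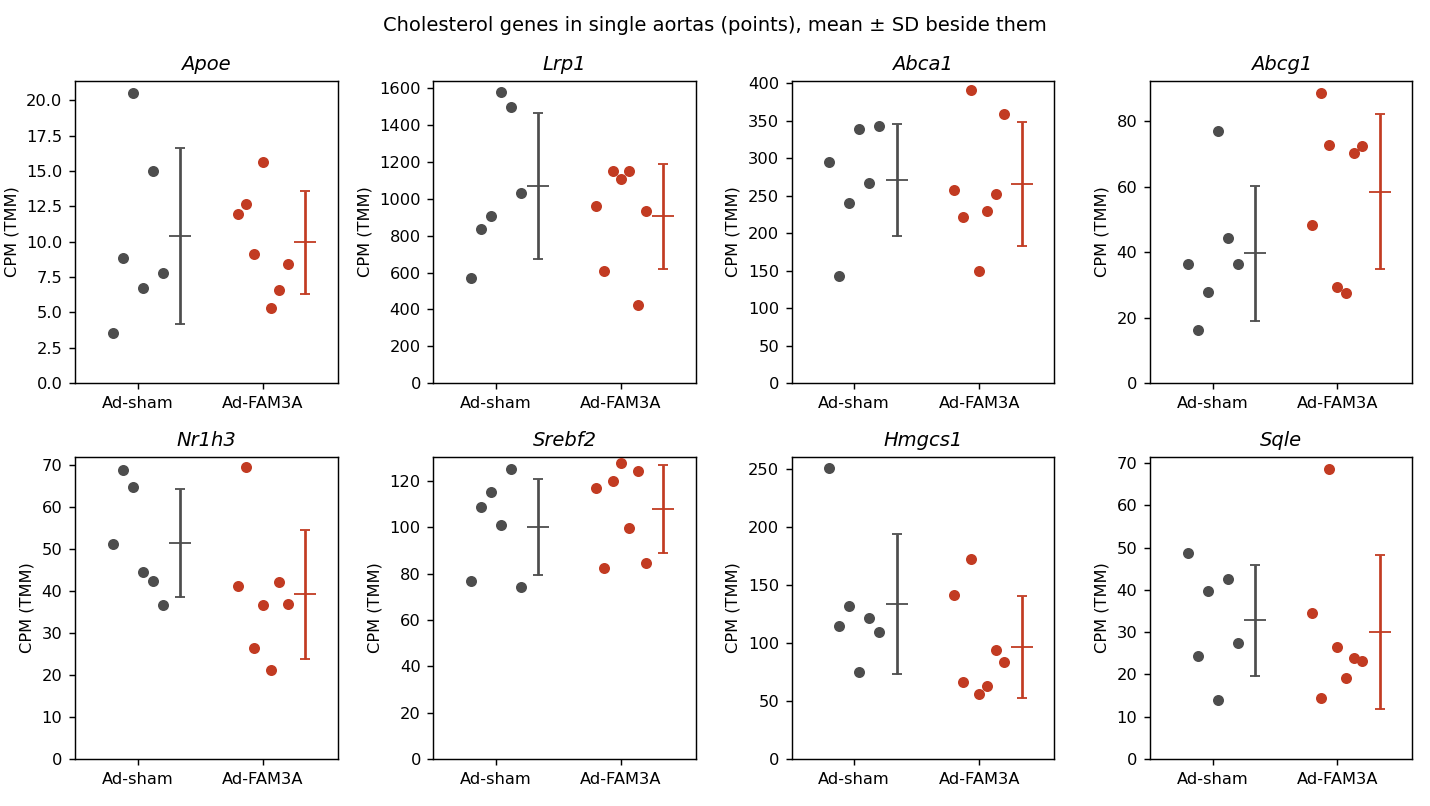
Level of each of the 8 cholesterol genes in CPM after TMM scaling (vertical axes, linear, each starting at 0) in the 6 Ad-sham and the 7 Ad-FAM3A aortas; each point is 1 aorta, and the bar beside the points gives the mean ± SD. The groups overlap in all 8 panels, Srebf2 has the narrowest spread (1.72-fold from the lowest to the highest aorta) and Apoe the widest (5.74-fold).

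Apoe, on chromosome 7 (GRCm38, 19696109 to 19699188, minus strand), encodes apolipoprotein E, and it is the gene inactivated in these mice. It was still counted in every aorta, with 54 to 325 counts. Its level in Ad-sham ran from 3.57 over a median of 8.31 to 20.5 CPM, and in Ad-FAM3A from 5.30 over 9.10 to 15.6 CPM. The highest values were in Ad-sham3 and Ad-FAM3A4 and the lowest in Ad-sham1, so both groups spanned most of the range. The fold change was 0.956 (95% interval 0.554 to 1.65), and the two-sided exact permutation p was 0.872. On a scale per gene length, Apoe measured 4.75 ± 2.23 FPKM (CPM per kilobase of gene model; SD, n = 13), the lowest of the 8 genes and at percentile 51.3 of the genes tested. The counts are per gene and the sources used here do not give the deleted exons, so these reads check neither the deletion nor the presence of a full transcript. With 168 counts on average, Apoe was also the least deeply counted of the 8.

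The genes around Apoe on chromosome 7 were read beside it. In a list of 8 genes of the locus that includes Apoe itself, 6 were tested, and the fitted fold change was below 1 for all 6, with a median log2 fold change of -0.21. Nectin2, an adhesion molecule, was the 1 gene with an unadjusted p under 0.05 (log2 fold change -0.45, SE 0.20, 32.1 against 23.5 CPM, exact permutation p 0.0519), where 2.93% of all genes tested were that far down. Apoc1, an apolipoprotein gene, measured 14.2 ± 8.99 CPM (SD, n = 6) and 12.1 ± 10.8 CPM (SD, n = 7). Apoc4 and Apoc2 had too few counts to be tested, with means of 6.54 and 0.0769 counts. Apoe itself followed Apol9b (r = 0.93), Nudt3 (r = 0.87) and Mark4 (r = 0.86) most closely over the 13 aortas, as a description across all genes tested. Hepatocyte markers gave r = 0.66 with Apoe (rho = 0.65, adjusted p = 0.132 and 0.178 by permutation test), and 0.73 without Ad-FAM3A1 and Ad-FAM3A7. The part of the hepatocyte markers in the values of Apoe was not tested.

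Lrp1, on chromosome 10 (127538161 to 127621148, minus strand), encodes a large endocytic receptor that takes up ApoE-bearing remnants and many other ligands and is abundant in smooth muscle cells, fibroblasts and macrophages. It was the most highly expressed of the 8, at 55.4 ± 19.0 FPKM (SD, n = 13) and percentile 94.9 of the genes tested. In Ad-sham it ran from 569 over 969 to 1581 CPM and in Ad-FAM3A from 424 over 959.8 to 1153 CPM. Ad-sham4 and Ad-sham5 lay above every Ad-FAM3A aorta, while Ad-sham1 and Ad-FAM3A6 were low. Between the groups this gave a fold change of 0.846 (95% interval 0.553 to 1.29) and the exact permutation p was 0.457. Among the 12 uptake receptors and their adaptors, 5 had fitted fold changes above 1 and 7 below 1, with a median log2 fold change of -0.09.

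Within the uptake list, 2 of 12 genes had an unadjusted p under 0.05 and both were lower, where 2.93% of all genes tested were that far down, and neither passed the adjustment. Scarb1, the receptor that exchanges cholesteryl ester with HDL, measured 97.1 to 138 CPM in Ad-sham and 44.4 to 102 CPM in Ad-FAM3A (log2 fold change -0.48, SE 0.18, exact permutation p 0.0111). Cd36, which takes up fatty acids and oxidized LDL and is abundant in adipocytes and macrophages, measured 992 to 2348 and 863 to 1223 CPM (log2 fold change -0.49, SE 0.21, exact permutation p 0.0303). The groups overlapped for both. At the ends of the list's range, the scavenger receptor gene Msr1 had the highest log2 fold change, 0.81 (SE 0.47), and Lrp2, the renal receptor megalin, the lowest, -1.27 (SE 1.38). Neither was past an unadjusted p of 0.05. Kidney markers summed to 0.485 to 581 CPM in Ad-sham and to 0.690 to 304 CPM in Ad-FAM3A, and their part in the value of Lrp2 was not tested. The summed white adipocyte markers, given beside Nr1h3, were lower in Ad-FAM3A as well, and their part in the values of Scarb1 and Cd36 was not tested.

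Export of cholesterol is carried by Abca1, which loads lipid-poor apolipoprotein A-I, and by Abcg1, which moves sterols toward HDL particles. Abca1, on chromosome 4 (53030787 to 53159895, minus strand), measured 143 over 281 to 343 CPM in Ad-sham and 150 over 252 to 391 CPM in Ad-FAM3A, the lowest value, the median and the highest. The pair of lowest aortas, Ad-sham2 and Ad-FAM3A4, came from both groups. Ad-FAM3A over Ad-sham, the fold change was 0.980 (95% interval 0.686 to 1.40) and the exact permutation p was 0.891. Its sign turned when single aortas were left out.

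Abcg1, on chromosome 17 (31057698 to 31115777, plus strand), had the largest fitted increase of the 8. It ran from 16.3 over 36.3 to 77.0 CPM in Ad-sham and from 27.5 over 70.3 to 88.6 CPM in Ad-FAM3A. Of the 7 Ad-FAM3A aortas, 5 lay above the Ad-sham median, and Ad-sham4 was the 1 Ad-sham aorta above 4 of them. This amounted to a fold change of 1.47 (95% interval 0.878 to 2.47), with a log2 value of 0.56 (SE 0.35) and an exact permutation p of 0.160. Without Ad-sham4 the log2 value was 0.86 with an unadjusted p of 0.0202 and an adjusted p of 0.636 in the same edgeR fit after Benjamini-Hochberg adjustment. Since a bulk aorta holds several cell types, more cells of a type and more RNA per cell cannot be told apart for this or any other gene here.

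Abcg1 varied with the macrophage and foam cell markers from aorta to aorta. Over the 13 aortas its log2 CPM correlated with the mean of 7 foam cell markers at r = 0.86 (rho = 0.92, adjusted p = 0.0176 and 0.0084 by permutation test over 120 pairs) and with that of 12 macrophage markers at r = 0.84 (rho = 0.87, adjusted p = 0.0176 and 0.0192 by permutation test). Without the pair of aortas farthest from the median of the markers, r was 0.78 and 0.86. Both held with each group centred on its mean (r = 0.85 and 0.89). The summed macrophage markers ran from 999 to 2753 CPM in Ad-sham and from 798 to 4457 CPM in Ad-FAM3A (medians 1355 and 2052), with 5 of 12 genes higher, 7 lower, 0 at an unadjusted p under 0.05 and none at 0 in any aorta. The summed foam cell markers ran from 783 to 1922 CPM and from 777 to 2586 CPM (medians 1109 and 1069), with 6 of 7 genes higher, none at 0 in any aorta, and the 1 gene at an unadjusted p under 0.05, Plin2, lower (log2 fold change -0.57). Of all genes tested, 2.93% were lower at that p. Ad-FAM3A2 and Ad-sham4 held the highest macrophage sums of their groups and also the highest Abcg1. T cell markers passed with Abcg1 by rank (rho = 0.79, adjusted p = 0.0382 by permutation test) and not by r (0.66, adjusted p = 0.127), which was 0.71 without Ad-sham4 and Ad-FAM3A6. The part of these markers in the difference between the groups was not tested. The 3 genes most like Abcg1 over the 13 aortas were Sirpa (r = 0.98), Mpeg1 (r = 0.97) and Ctss (r = 0.95), of which Ctss is itself on the macrophage list.

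Abca1 did not follow the macrophage markers to the same threshold, with r = 0.70 (rho = 0.57, adjusted p = 0.110 and 0.320 by permutation test) and r = 0.54 without Ad-sham4 and Ad-FAM3A4. The pair Abca1 and Abcg1 gave r = 0.64 (rho = 0.52, adjusted p = 0.252 and 0.564 by permutation test over 28 pairs), and r was 0.31 without Ad-sham2 and Ad-FAM3A4, so it depends in part on those aortas. Centred on the group means r was 0.72 (adjusted p = 0.0729 by permutation test), and it was 0.85 within Ad-sham and 0.61 within Ad-FAM3A. Eaf1 (r = 0.91), Rap2a (r = 0.88) and Fmn1 (r = 0.88) were the genes most like Abca1.

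**Figure D2:**
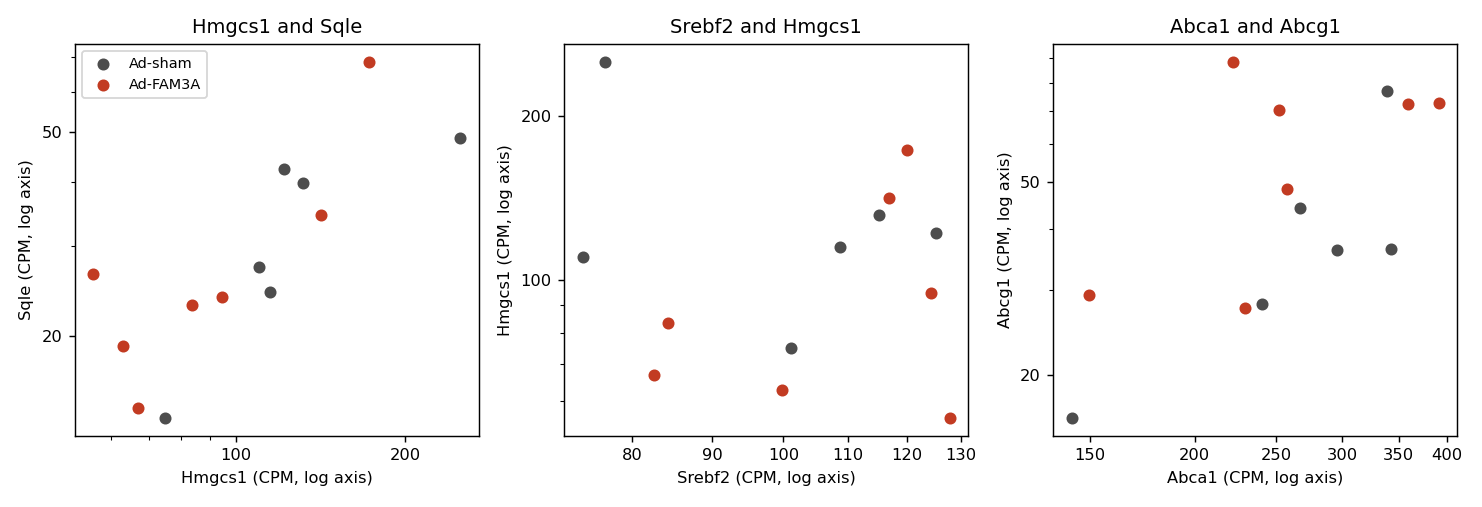
Levels of 3 gene pairs in CPM on log axes, each point 1 of the 13 aortas, dark for Ad-sham and red for Ad-FAM3A: Hmgcs1 against Sqle (r = 0.81), Srebf2 against Hmgcs1 (r = -0.09) and Abca1 against Abcg1 (r = 0.64). The points of both groups fall along 1 band in the left panel and scatter in the middle panel.

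Nr1h3, on chromosome 2 (91184061 to 91202834, minus strand), encodes LXRα, the sterol-activated receptor that drives both exporters. It ran from 36.6 over 47.8 to 69.0 CPM in Ad-sham and from 21.3 over 37.0 to 69.6 CPM in Ad-FAM3A. In Ad-FAM3A, 6 of 7 aortas lay below the Ad-sham median, and Ad-FAM3A2 had the highest value of all 13. Its fold change was 0.763 (95% interval 0.531 to 1.09), with a log2 value of -0.39 (SE 0.24) and an exact permutation p of 0.108. Without Ad-FAM3A2 the log2 value was -0.57, with an unadjusted p of 0.0154 and an adjusted p of 0.558 in the same edgeR fit after Benjamini-Hochberg adjustment. In the annotation 34 exonic bases of Nr1h3 are shared with the transcript Gm13783, and how reads there were assigned is not given in the sources used here.

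Nr1h3 varied with the adipocyte markers. Its log2 CPM correlated with the mean of 8 white adipocyte markers at r = 0.85 (rho = 0.82, adjusted p = 0.0176 and 0.0293 by permutation test), with r = 0.83 without Ad-sham1 and Ad-sham2 and r = 0.82 with each group centred. For the 5 brown adipocyte markers r was 0.78 (adjusted p = 0.0322 by permutation test), whereas rho was 0.63 (adjusted p = 0.189 by permutation test), and r was 0.64 without Ad-sham2 and Ad-sham3. With the macrophage markers its r was -0.01, and the difference between these correlations was not tested. The white adipocyte markers summed to 4524 to 14829 CPM in Ad-sham and to 2861 to 8783 CPM in Ad-FAM3A (exact permutation p 0.0862), and none was at 0 in any aorta. All 8 were lower in Ad-FAM3A, 3 of them at an unadjusted p under 0.05, where 2.93% of all genes tested were that far down. The part of the adipocyte markers in the values of Nr1h3 was not tested. Slc25a26, Dus1l and Galt (each r = 0.95) were the genes most like Nr1h3.

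The list of liver X receptors, their partners and targets held 16 genes, of which 4 had fitted fold changes above 1 and 12 below 1, with a median log2 fold change of -0.06. Lpcat3, which builds polyunsaturated phospholipids, was the 1 gene at an unadjusted p under 0.05 (58.0 against 45.3 CPM, log2 fold change -0.36, SE 0.15, exact permutation p 0.0239), against 2.93% of all genes that were lower at that p. The fatty acid desaturase Scd1 lay lowest at -0.76 (SE 0.37), and Abcg1 lay highest. Of 17 genes of efflux, esterification and lysosomal cholesterol, 8 were above 1 and 9 below 1, with a median of -0.02. Soat1, which esterifies cholesterol for storage in droplets, was higher at an unadjusted p under 0.05, at 31.5 against 50.2 CPM (log2 fold change 0.67, SE 0.31, exact permutation p 0.0437), where 2.98% of all genes tested were that far up. Scarb1, described among the receptors, is also on this list and was the 1 gene of it lower at that p. Apoa1, the main HDL apolipoprotein and largely a product of liver and gut, had the largest fitted value at 2.25 (SE 1.22), from 1.38 and 6.56 CPM on average, not past an unadjusted p of 0.05. Hepatocyte markers summed to 1.28 to 421 CPM over the Ad-FAM3A aortas and to 1.52 to 81.7 CPM over the Ad-sham aortas, and their part in it was not tested.

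Srebf2, on chromosome 15 (82147181 to 82205379, plus strand), encodes the transcription factor that turns on sterol synthesis and is controlled mainly by cleavage of its protein, which RNA counts do not show. It was the steadiest of the 8, from 74.4 over 105 to 125 CPM in Ad-sham and from 82.6 over 117 to 128 CPM in Ad-FAM3A. Between the groups it differed 1.08-fold (95% interval 0.847 to 1.37) and the exact permutation p was 0.480. Of the 10 tested genes of this machinery, 6 were above 1 and 4 below 1, with a median log2 fold change of 0.03. The lowest were Srebf1, the lipogenic sister gene, at -0.60 (SE 0.29), and Insig1, the sterol-sensing brake, at -0.51 (SE 0.36), and neither had an unadjusted p under 0.05. The genes most like Srebf2 were Gm15545 (r = 0.88), which the annotation lists as an antisense transcript on another chromosome, Casc3 (r = 0.86) and Smg9 (r = 0.86).

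Hmgcs1, on chromosome 13 (119690379 to 119708260, plus strand), encodes the cytosolic synthase that makes HMG-CoA, and it had the largest fitted decrease of the 8. It ran from 74.9 over 119 to 251 CPM in Ad-sham and from 55.8 over 83.4 to 173 CPM in Ad-FAM3A. Ad-sham1 stood above all other aortas and Ad-FAM3A3 came next, and 5 of 7 Ad-FAM3A aortas lay below the Ad-sham median. Its fold change was 0.722 (95% interval 0.455 to 1.14), with a log2 value of -0.47 (SE 0.31) and an exact permutation p of 0.168. Leaving out Ad-sham1 brought the log2 value to -0.20, and leaving out Ad-FAM3A3 brought it to -0.66 with an unadjusted p of 0.0442. The antisense gene Gm48342 shares 557 exonic bases with Hmgcs1, and without a stated strand setting reads of the pair cannot be told apart.

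Sqle, on chromosome 15 (59315077 to 59331192, plus strand), encodes squalene epoxidase, a rate-limiting enzyme of the later steps. It ran from 13.9 over 33.6 to 48.7 CPM in Ad-sham and from 14.5 over 23.9 to 68.6 CPM in Ad-FAM3A. The highest value belonged to Ad-FAM3A3, while the other 6 Ad-FAM3A aortas stayed within the range of Ad-sham. This gave a fold change of 0.916 (95% interval 0.541 to 1.55) and the exact permutation p was 0.648.

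The enzymes of the synthesis pathway had fitted values that leaned one way, and single aortas moved them. Of 20 enzymes, all tested, 19 had fitted fold changes below 1, with a median log2 fold change of -0.24 against 0.003 over all genes tested, of which 49.6% were below 1. Acat2, which joins acetyl-CoA units, was the 1 enzyme at an unadjusted p under 0.05 (116 ± 56.8 against 73.6 ± 17.2 CPM, log2 fold change -0.66, SE 0.27), and its exact permutation p was 0.0816. Of all genes tested, 2.93% were lower at an unadjusted p under 0.05. Pmvk lay lowest at -0.73 (SE 0.37). None passed the adjustment. Without Ad-sham1, 14 of 20 were below 1, and the list's median ran from -0.43 without Ad-FAM3A3 to -0.16 without Ad-FAM3A2. White adipocyte markers, given beside Nr1h3, were lower in Ad-FAM3A for 8 of 8 genes. The brown adipocyte markers were lower for 5 of 5 genes, 2 of them at an unadjusted p under 0.05, with sums of 534 to 3711 CPM in Ad-sham and 587 to 3005 CPM in Ad-FAM3A. White adipocyte markers gave r = 0.45 with Hmgcs1 and r = 0.12 with Sqle (adjusted p = 0.561 and 0.940 by permutation test). For brown adipocyte markers r was 0.22 and -0.06 (adjusted p = 0.916 and 0.982 by permutation test). Schwann cell and myelin markers were lower for 8 of 8 genes, 0 of them at that p, with sums of 219.5 to 639 CPM and 172 to 458 CPM and Mag at 0 in 1 aorta. These last gave r = 0.62 with Hmgcs1 (rho = 0.71, adjusted p = 0.202 and 0.112 by permutation test) and r = 0.63 with Sqle (rho = 0.69, adjusted p = 0.184 and 0.138 by permutation test), which were 0.44 and 0.45 without Ad-FAM3A2 and Ad-FAM3A5. Smooth muscle markers were higher in Ad-FAM3A for 8 of 8 genes, 0 of them at that p, with median sums of 7488 and 11158 CPM in Ad-sham and Ad-FAM3A, and gave r = -0.55 with Hmgcs1 (rho = -0.48, adjusted p = 0.314 and 0.461 by permutation test, r = -0.55 without Ad-sham1 and Ad-FAM3A6). The part of these markers in the enzyme values was not tested. The enzymes vary together, as shown next, so their 20 signs are not separate measurements. Fdps averaged 13.9 counts per aorta and is uncertain.

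**Figure D3:**
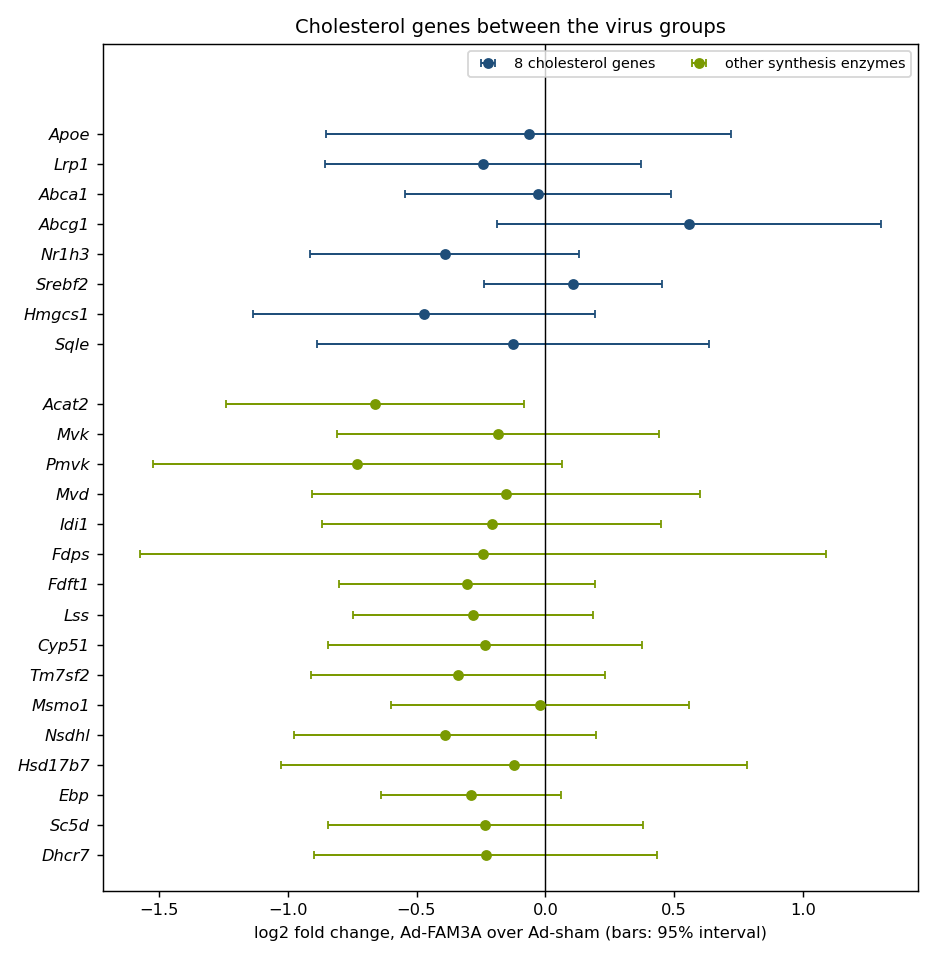
Log2 fold change of Ad-FAM3A over Ad-sham (horizontal axis; points) with its 95% interval (bars) for the 8 cholesterol genes (blue) and 16 other synthesis enzymes (green); the vertical line marks no change. The intervals of all 8 genes include 0, and among the enzymes the interval of Acat2 alone among those plotted lies below it.

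Hmgcs1 and Sqle varied together across the aortas of both virus groups. Of the 28 pairs among the 8 genes, 1 passed an adjusted p of 0.05: Hmgcs1 and Sqle, at r = 0.81 (rho = 0.82, p = 0.001 and 0.00092, adjusted p = 0.028 and 0.0258 by permutation test). Without Ad-sham1 and Ad-FAM3A4, the aortas farthest from the median of Hmgcs1, r was 0.91. Centred on the group means it was 0.83, and within the groups it was 0.84 in Ad-sham and 0.83 in Ad-FAM3A.

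Most of the other synthesis enzymes varied with this pair. Hmgcs1 correlated above 0 with 19 of the 19 other enzymes, and 14 of them passed an adjusted p of 0.05 (permutation test, 58 pairs). The closest was Nsdhl at r = 0.98 (rho = 0.97), a demethylating enzyme of the later steps, with an adjusted p of 0.000193 by permutation test, and r was 0.96 without Ad-sham1 and Ad-FAM3A4. Nsdhl, Sc5d (r = 0.93) and Cyp51 (r = 0.93), all enzymes of sterol synthesis, were also the 3 genes most like Hmgcs1 among all 15811. Sqle correlated above 0 with 18 of 19 enzymes, of which 13 passed, led by Hsd17b7 (r = 0.96, and 0.93 without Ad-sham4 and Ad-FAM3A3). Hsd17b7 was also the gene most like Sqle among all genes tested, and Rab9b (r = 0.89) was among the first 3. Ebp, the sterol isomerase, was the least like both, at r = 0.11 with Hmgcs1 and -0.13 with Sqle. These relations share the 13 libraries and are not independent of each other.

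No relation of the Srebf2 transcript with the enzymes passed the test. Its r with Hmgcs1 was -0.09 (rho = 0.01, adjusted p = 0.838 and 0.993 by permutation test), although r was 0.52 without Ad-sham1 and Ad-FAM3A4, the first of which had the highest Hmgcs1 and low Srebf2 (76.8 CPM). With Sqle r was 0.26 (-0.01 within Ad-sham and 0.60 within Ad-FAM3A), and it was 0.18 without Ad-sham4 and Ad-FAM3A3, the aortas farthest in Sqle, and 0.63 without Ad-sham1 and Ad-sham6, those farthest in Srebf2. Over the 20 enzymes, r was above 0 for 12, and 0 passed an adjusted p of 0.05.

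**Figure D4:**
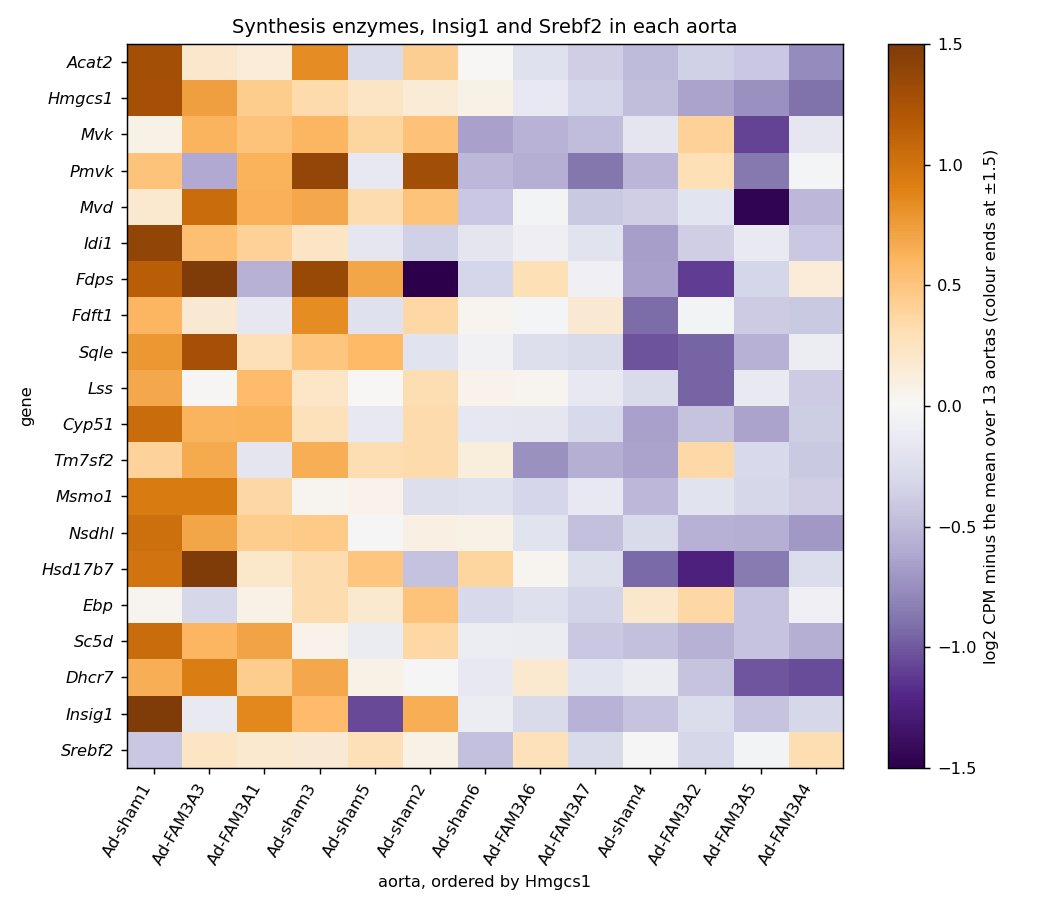
Log2 CPM of 18 synthesis enzymes (rows, in pathway order), Insig1 and Srebf2 in each of the 13 aortas (columns, from the highest to the lowest Hmgcs1), shown as the difference from the gene's mean over the 13 aortas, orange above it and purple below it, with colors ending at ±1.5. Most enzymes turn from orange on the left to purple on the right, and the row of Srebf2 stays pale. The left end starts with Ad-sham1 and Ad-FAM3A3, and at the right end Ad-sham4 is followed by Ad-FAM3A2, Ad-FAM3A5 and Ad-FAM3A4.

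Markers of sympathetic neurons and chromaffin cells split the aortas into separate sets. The sum over 8 genes such as Th and Dbh was 4.17 to 42.3 CPM in 5 aortas, of which 2 were Ad-sham and 3 Ad-FAM3A, and 216 to 1043 CPM in the other 8, of which 4 were Ad-sham and 4 Ad-FAM3A. Sqle was 13.9 to 26.4 CPM in the 5 and 23.1 to 68.6 CPM in the 8, and Hmgcs1 was 55.8 to 115 and 83.4 to 251 CPM. Since the sets are separate, no r over all 13 is given, and the 8 aortas were examined on their own, a choice made after the data had been seen. There the markers gave r = 0.74 with Sqle (rho = 0.71, exact permutation p 0.0392 and 0.0576, adjusted p = 0.0588 over 3 pairs, r = 0.56 without the pair of aortas farthest from the median of the markers) and r = 0.34 with Hmgcs1 (rho = 0.36, exact permutation p 0.415 and 0.389, r = 0.33 without that pair). Hmgcs1 and Sqle gave r = 0.81 in these 8 (rho = 0.88, exact permutation p 0.0143 and 0.00724, adjusted p = 0.0429, r = 0.91 without the pair farthest in Hmgcs1). Pnmt was at 0 in 9 of the 13 aortas and Dbh in 1. All 7 tested markers of the list were lower in Ad-FAM3A, 0 of them at an unadjusted p under 0.05. The adrenal cortex markers Cyp11b1, Cyp11b2, Cyp21a1, Hsd3b1 and Nr5a1 had a median of 0 CPM, and 2 of the 8 on that list had enough counts to be tested.

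Lrp1 followed the fibroblast markers. With the mean of 6 of them r was 0.80 (rho = 0.82, adjusted p = 0.0199 and 0.0293 by permutation test), 0.79 with each group centred and 0.64 without Ad-sham5 and Ad-FAM3A6. Fibroblast markers summed to 3954 to 11682 CPM in Ad-sham and to 2395 to 8468 CPM in Ad-FAM3A, with all 6 lower in Ad-FAM3A, 0 at an unadjusted p under 0.05 and none at 0, and their part in the values of Lrp1 was not tested. Endothelium markers gave r = 0.69 with Lrp1 (rho = 0.75, adjusted p = 0.110 and 0.0642 by permutation test), and 0.75 without Ad-sham4 and Ad-sham6. Smooth muscle markers gave r = 0.65 (rho = 0.54, adjusted p = 0.152 and 0.320 by permutation test), and 0.11 without Ad-sham1 and Ad-FAM3A6. The trait is therefore not particular to fibroblast markers. Cardiac muscle markers ran against Lrp1 at r = -0.78 (rho = -0.80, adjusted p = 0.0453 and 0.0358 by permutation test), and r was -0.46 without Ad-sham1 and Ad-FAM3A6, so it rests on those aortas, whose summed markers were 283 and 187 CPM. Bace1 (r = 0.95), Bcr (r = 0.94) and Rab11fip5 (r = 0.94) were the genes most like Lrp1. By r over the 13 aortas, 7 of the 120 pairs of a gene and a marker list passed an adjusted p of 0.05, the 6 described and that of Sqle with the sympathetic markers, which is not relied on because the aortas form separate sets.

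**Figure D5:**
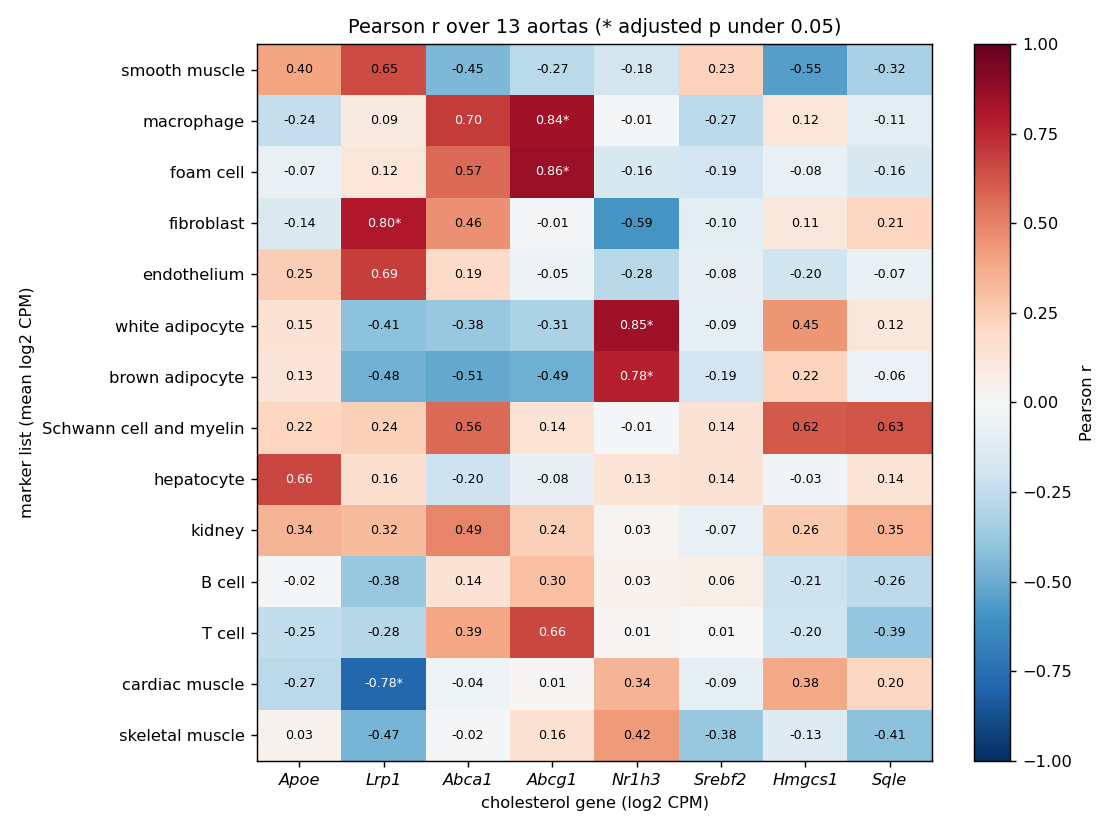
Pearson r over the 13 aortas between the log2 CPM of each of the 8 genes (columns) and the mean log2 CPM of 14 cell type marker lists (rows), red for values above 0 and blue for values below 0, with an asterisk where the adjusted p by permutation test is under 0.05. By r, Abcg1 passes with macrophage and foam cell markers, Nr1h3 with adipocyte markers and Lrp1 with fibroblast markers and, below 0, with cardiac muscle markers, and the list of sympathetic markers is left out because it splits the aortas into separate sets.

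Per gene length, the levels followed the order Lrp1, Abca1, Hmgcs1, Nr1h3, Srebf2, Abcg1, Sqle and Apoe. After Lrp1, Abca1 measured 25.9 ± 7.33, Hmgcs1 24.8 ± 11.7, Nr1h3 17.8 ± 6.02, Srebf2 14.5 ± 2.69, Abcg1 12.2 ± 5.77 and Sqle 5.64 ± 2.78 FPKM (SD, n = 13). Lrp1 and Abca1 differed by more than their SDs together, while every pair of neighbors overlapped in range.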

How the data were processed

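RNA of 13 whole aortas was sequenced, 6 labelled Ad-sham and 7 labelled Ad-FAM3A, and the labels give each library as the aorta of 1 mouse. Low-quality reads were removed, the rest were aligned to GRCm38 with Hisat2 and counted per gene with FeatureCounts, and the authors deposited these whole-number counts without normalization. A second set of deposited values, FPKM, holds 1 group mean per gene and was used only as a check of units. FPKM values in the text were computed here from TMM-scaled CPM and the deposited gene lengths. Strand setting, annotation release and handling of multi-mapped reads are not given in the sources used here, so Fdps, which has many pseudogene copies, and overlapping genes are uncertain.

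The tools were edgeR 4.0.16, DESeq2 1.42.0 and limma 3.58.1 under R 4.3.3. After TMM scaling and filterByExpr, 15811 of 54532 genes were tested with the quasi-likelihood model of edgeR, without covariates, and p-values were adjusted over all of them by the Benjamini-Hochberg method. A call needed an adjusted p under 0.05 with a log2 change of more than 1 either way. SEs are the size of the fold change over the root of the F statistic. For single genes, mean log2 CPM (prior count 2) was compared by a two-sided exact permutation test with 1716 splits, which cannot go below p = 0.000583. Correlations across aortas used 100000 resamples and were adjusted over 28, 120 or 58 pairs. On counts simulated for the 15811 genes of this comparison, 161 of 200 genes changed by a log2 size of 2 were called, with 7 unchanged genes among 168 calls. Replicate libraries differed far beyond sampling noise (chi-square per degree of freedom at least 40.3), so each counts as 1 sample, and depths of 14481179 to 19797407 counts set the precision. Columns were mapped to aortas by their names, with 0 left unmapped.

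The 8 genes, the pathway lists and the marker lists were chosen with earlier results of these data known. Besides the 8 genes, the text names pathway genes with the smallest unadjusted p (up to 3 per direction and list) or at the ends of a list's range, marker genes, Fam3a, and the 3 genes with the highest r with each of the 8. Some genes of the lists enter the counts but are not reported here by name. Alternatives were other scalings, filters and tests, a replicate block and leaving out each aorta.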

Additional observations from a re-analysis of the deposited data

Results flagged for a closer look

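Of 48 groups of values examined for a sample far from the others of its group, 2 had one, where chance gives about 2.4. The mean log2 CPM of the cardiac muscle markers reached 5.05 in Ad-FAM3A6, while the remaining 6 Ad-FAM3A aortas lay between 0.73 and 1.98. The total count was 19797407 in Ad-sham5, against 15588507 to 17097928 in the other 5 Ad-sham aortas. None of the 8 cholesterol genes had such an aorta in either group.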

How the results depend on the processing

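The count of the 8 genes called between the groups was 0 under every scaling, filter, test and left-out aorta. Across all genes 0 were called under these alternatives except DESeq2, which called 10 (9 higher, 1 lower), with 1501 at an unadjusted p under 0.05 and the cause not tested. The log2 fold changes of Lrp1, Abcg1, Hmgcs1, Srebf2 and Nr1h3 kept their sign in all of them. Those of Apoe, Abca1 and Sqle, near 0, did not: Abca1 was 0.0041 with library totals only, Apoe was 0.048 with limma-voom, and with single aortas left out Apoe ran from -0.26 to 0.25, Abca1 from -0.16 to 0.079 and Sqle from -0.46 to 0.0020, the last without Ad-sham1. Lrp1 ran from -0.37 (without Ad-sham1) to -0.10 (without Ad-sham4), Srebf2 from 0.03 (without Ad-sham6) to 0.18 (without Ad-sham5), Abcg1 from 0.40 to 0.86, Hmgcs1 from -0.66 to -0.20 and Nr1h3 from -0.57 to -0.27. The number of enzymes with fold changes below 1 ran from 14 to 20 without single aortas and from 18 to 19 otherwise.

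With the replicate number as a block (replicates 1 to 6, Ad-FAM3A7 left out), 0 of the 8 genes and 0 of all genes were called, Apoe was 0.10, and 1 of the 8, Hmgcs1, had an unadjusted p under 0.05 (log2 fold change -0.46, adjusted p = 0.978 by edgeR). Deviations of same-numbered aortas correlated at -0.07, 0.45, 0.30, 0.28, -0.33 and 0.02, and 1 of the 6 correlated best with its own number. What the replicate numbers stand for is not given in the sources used here, and whether they pair the aortas was not tested. Counts were lowest for Apoe among the 8 genes, at 168 on average.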

Other observations

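Beyond the pairs described, Nr1h3 and the fibroblast markers gave r = -0.59 over the 13 aortas (adjusted p = 0.245 by permutation test over 120 pairs) and r = -0.80 with each group centred on its mean (adjusted p = 0.015 by permutation test), and without Ad-sham5 and Ad-FAM3A6 the uncentred r was -0.79. Centring left brown adipocyte markers and Nr1h3 at r = 0.74 (adjusted p = 0.0549 by permutation test), while the other 6 pairs that passed without centring also passed with it. B cell markers were higher in Ad-FAM3A for all 5 genes at an unadjusted p under 0.05 (2.98% of all genes tested), while their summed level gave an exact permutation p of 0.519, and Ad-FAM3A6 and Ad-FAM3A7 held the 2 highest sums, 653 and 246 CPM. They summed to at most 653 CPM over the Ad-FAM3A aortas (median 17.6) and at most 45.1 CPM over the Ad-sham aortas (median 22.9), and none of the 8 genes passed with them.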
